A study of Mus musculus with 6 samples.

Results

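The genes described are 10 that visceral endoderm uses to take up and to ship protein and lipid: the endocytic receptor genes Lrp2, Cubn and Amn, the adaptor gene Dab2, the carrier protein genes Ttr and Afp, and the apolipoprotein genes Apoa1, Apoa4, Apob and Apoe. They were taken by gene symbol, and each symbol matched 1 of the 55487 genes in the count table. All 10 had enough counts to be tested. Poly(A) RNA was sequenced from cells grown out of mouse embryonic stem cells, 3 libraries from cells established from Ts1Cje mice and 3 from cells established from wild-type mice. Ts1Cje is a Down syndrome model that carries a segment of distal chromosome 16 in excess, a chromosome on which 0 of the 10 genes lie. The model also carries a deletion on chromosome 12, the chromosome of Amn and Apob, and the extent of that deletion was not examined here. Cells of both genotypes were kept with LIF and serum replacement and then induced for 4 days with FGF2, BMP-4, activin A and VEGF toward primitive macrophage progenitors. Libraries are numbered by lot, and nothing in the labels states that a lot was its own culture or cell line. The p-values therefore measure only how much these libraries vary, which may be technical. The cell lines and the genotype cannot be told apart.

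Visceral endoderm is the epithelium that covers the early mouse embryo and lines its yolk sac. It takes up maternal protein, lipid and vitamins through clathrin-coated pits at its apical surface and secretes many of the plasma proteins that the liver makes later. Lrp2 encodes megalin, a very large receptor of the LDL receptor family. Cubn encodes cubilin, which has no membrane-spanning part and is carried to the surface by the product of Amn, amnionless; cubilin and amnionless together form the cubam receptor. Dab2 encodes the adaptor that couples megalin to clathrin. These receptors also serve in the kidney tubule, and Dab2 and Apoe are also known from macrophages.

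The stretch before the transcription start is shown for 3 of the secreted genes that rose and for the 3 receptor genes, so that the motif matches described after them can be read in place. Sequences are RefSeq's, on GRCm38.p6, 5′ to 3′ on the gene's strand, and end before both the RefSeq start and the start in the deposited table. Capitals mark matches, on either strand, to any of 7 short motifs. These are GTTAAT, a core of HNF1 sites found in 7.1% of 32851 promoter windows of 300 bases, AAGTCCA for HNF4 (4.17%), TGTTTAC for FOXA factors (3.65%), TGTTTGC for the same factors (5.07%), AGATAA for GATA factors (11.2%), TGATAA for the same (9.05%) and TATAAA, the TATA box (13.6%). The stretch of Afp lies at chr5:90490464-90490713 (plus strand), Apoa1 at chr9:46228380-46228579 (plus), Apob at chr12:7977427-7977647 (plus), Lrp2 at chr2:69586066-69586279 (minus), Cubn at chr2:13491877-13492126 (minus) and Amn at chr12:111270846-111271094 (plus).
Afp: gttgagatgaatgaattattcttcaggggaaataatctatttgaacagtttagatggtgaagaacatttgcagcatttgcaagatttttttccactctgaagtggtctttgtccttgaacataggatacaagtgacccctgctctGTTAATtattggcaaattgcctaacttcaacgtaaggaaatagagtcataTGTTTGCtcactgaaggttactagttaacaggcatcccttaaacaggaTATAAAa
Apoa1: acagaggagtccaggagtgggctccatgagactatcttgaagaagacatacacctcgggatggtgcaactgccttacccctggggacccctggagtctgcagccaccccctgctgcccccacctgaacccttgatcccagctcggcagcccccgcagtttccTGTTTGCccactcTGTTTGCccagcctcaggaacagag
Apob: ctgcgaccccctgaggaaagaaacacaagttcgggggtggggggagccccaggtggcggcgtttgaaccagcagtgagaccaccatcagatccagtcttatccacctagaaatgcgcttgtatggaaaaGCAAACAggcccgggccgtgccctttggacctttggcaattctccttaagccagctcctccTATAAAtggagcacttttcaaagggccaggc
Lrp2: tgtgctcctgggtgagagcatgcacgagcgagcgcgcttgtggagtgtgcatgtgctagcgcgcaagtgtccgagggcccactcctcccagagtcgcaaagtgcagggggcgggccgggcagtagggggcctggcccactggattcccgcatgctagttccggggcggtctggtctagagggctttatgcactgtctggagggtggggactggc
Cubn: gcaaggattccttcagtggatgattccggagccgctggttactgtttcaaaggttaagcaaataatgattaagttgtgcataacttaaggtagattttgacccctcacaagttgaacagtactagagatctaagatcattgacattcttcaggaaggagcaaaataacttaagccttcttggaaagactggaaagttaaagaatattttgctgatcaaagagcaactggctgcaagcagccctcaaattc
Amn: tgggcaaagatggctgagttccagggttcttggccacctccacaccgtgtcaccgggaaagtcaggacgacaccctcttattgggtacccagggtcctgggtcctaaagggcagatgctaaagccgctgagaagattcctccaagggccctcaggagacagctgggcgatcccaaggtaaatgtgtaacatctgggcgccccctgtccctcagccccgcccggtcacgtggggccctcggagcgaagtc

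The FOXA letters TGTTTGC stood in the windows of Afp, Apoa1 and Apob, with 2 matches in Apoa1, at −88 and −75 from the RefSeq start, 1 in Afp at −55 and 1 on the other strand in Apob at −121. Of the 12 windows available for 9 of the genes, 3 held these letters. GTTAAT was matched in Afp at −105, and TATAAA in Afp at −7 and in Apob at −60. TGATAA was matched in Apoa1 at 15, past the stretch shown. Windows not shown held matches too. In Dab2, TGATAA stood at −179 and AGATAA at 14 of its first RefSeq start, and GTTAAT at −65 and AAGTCCA at −10 of its second. In Apoe, which did not pass the test, TATAAA stood at −100 and −96 of its second start, and GTTAAT at −172 and TGTTTAC at −5 of start number 3. The windows of Lrp2, Cubn, Amn and Apoa4 held no match to any of the 7 motifs. These are matches of letters, and no binding was measured.

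Of the 10 genes, 8 were higher in Ts1Cje and 0 were lower, while Apoa4 and Apoe did not pass the test. All 3 receptor genes, the adaptor gene and both carrier genes rose, as did Apoa1 and Apob among the 4 apolipoprotein genes. The test was edgeR's quasi-likelihood test with Benjamini-Hochberg adjustment over 17315 genes, at an adjusted p of 0.05, and it gives every adjusted p below unless another is named. By the same test 43.8% of all tested genes differed, 23.3% higher and 20.5% lower in Ts1Cje, so a change in a single gene was common in this comparison. The median log2 fold change of the 10 genes was 2.31, against −0.01 over all genes tested. The libraries of the groups did not overlap in 8 of the 10 genes, all with Ts1Cje above; this held for 55.2% of all tested genes, 28.8% with Ts1Cje above. In bulk RNA, fewer cells of a type and less RNA per cell cannot be told apart.

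**Figure D1:**
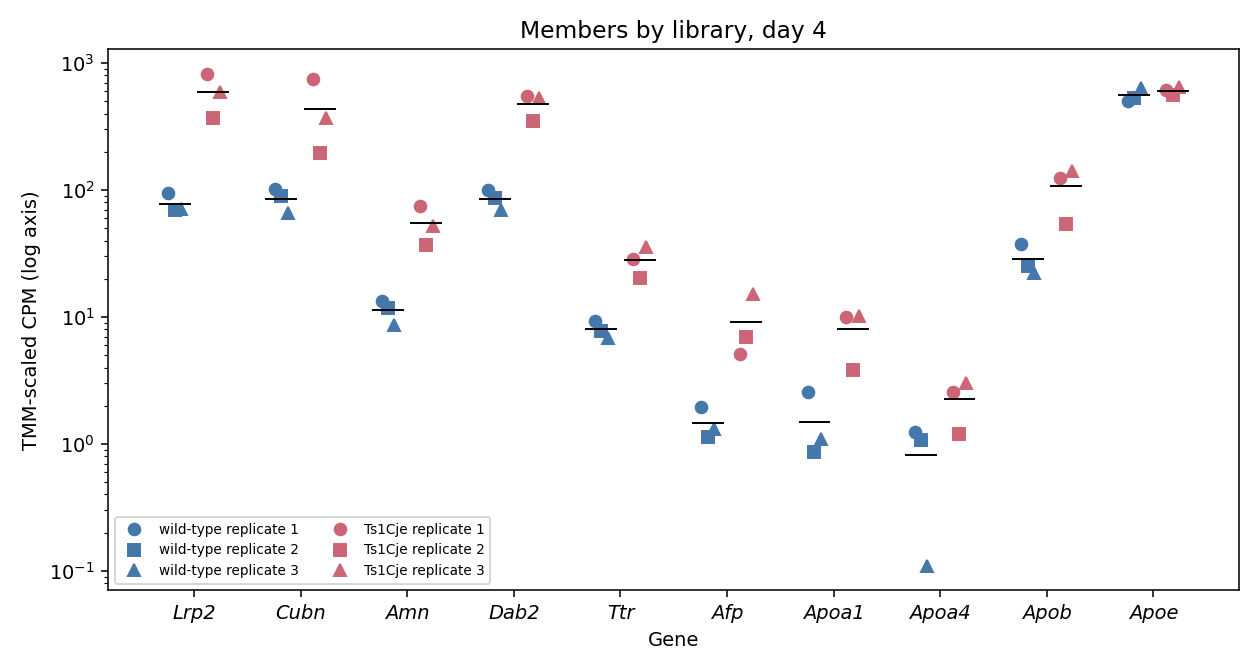
Level in CPM (TMM-scaled, log axis) of the 10 genes in each library, with wild-type in blue, Ts1Cje in red, a marker shape for each replicate number and a black bar for the mean of 3 libraries. The red points lie above all blue points in 8 genes and overlap them in Apoa4 and Apoe.

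Total counts ran from 16577065 to 19010856 per library. Genotypes separated on the first principal component of log2 CPM (79.1% of variance), where the score of wild-type replicate 1 was −50.0 and those of replicates 2 and 3 were −72.4 and −73.0. Levels below are CPM, counts scaled by library total with TMM factors and not by gene length, so levels of different genes are compared only in TPM.

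The receptor genes rose 4.83-fold to 7.61-fold. Lrp2 (ENSMUSG00000027070, mm10, chromosome 2, 69424340 to 69586065, minus strand) stood at 94.3, 69.9 and 70.8 CPM in wild-type replicates 1 to 3 and at 820, 373 and 596 CPM in Ts1Cje replicates 1 to 3. Every Ts1Cje library was above every wild-type library, and Ts1Cje replicate 2, the lowest of the 3, was 3.95 times the highest wild-type library. The means were 78.3 ± 13.8 and 596 ± 224 CPM (SD, n = 3 each). The log2 fold change was 2.93 ± 0.34 (SE), or 7.61-fold, with an adjusted p of 0.00156. This was the largest fold of the 10 genes.

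Cubn (ENSMUSG00000026726, chromosome 2, 13276338 to 13491813, minus strand) stood at 101, 89.1 and 66.2 CPM in wild-type and at 743, 196 and 368 CPM in Ts1Cje. The Ts1Cje libraries spread 3.78-fold between the lowest, replicate 2, and the highest, replicate 1, the widest such spread of the 10 genes. The log2 fold change was 2.35 ± 0.55 (SE; 5.09-fold, 95% interval 1.93 to 13.4) and the adjusted p 0.0214. Cubn no longer passed when wild-type replicate 1 (adjusted p = 0.081), 2 (0.052) or 3 (0.0697) or Ts1Cje replicate 3 (0.0559) was left out, and its log2 fold change was 1.72 without Ts1Cje replicate 1.

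Amn (ENSMUSG00000021278, chromosome 12, 111271095 to 111276426, plus strand), the partner of cubilin, stood at 13.5, 11.7 and 8.72 CPM in wild-type and at 75.1, 37.0 and 51.9 CPM in Ts1Cje. The groups did not overlap, and the order of the Ts1Cje libraries was that of Cubn and Lrp2. Its log2 fold change was 2.27 ± 0.29 (SE; 4.83-fold) with an adjusted p of 0.00102. Dab2 (ENSMUSG00000022150, chromosome 15, 6299788 to 6440712, plus strand), the clathrin adaptor, stood at 100.3, 86.1 and 69.5 CPM in wild-type and at 550.4, 351 and 527 CPM in Ts1Cje. It rose by a log2 fold change of 2.48 ± 0.22 (SE; 5.58-fold), with an adjusted p of 0.000325. Lrp2, Amn and Dab2 passed in all 15 alternative analyses.

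Cubn shares 49490 bases of the genome with Gm13270, a processed transcript annotated on the other strand. Gm13270 held 6.69% to 7.98% of the count of Cubn in the 6 libraries. It rose with a log2 fold change of 2.28 ± 0.46 (SE, adjusted p = 0.00955). It did not pass without wild-type replicate 1 (adjusted p = 0.0544) or with no filter (0.0534). The counting strand is not given in the sources used here, so reads of these 2 genes cannot be told apart with certainty.

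**Figure D2:**
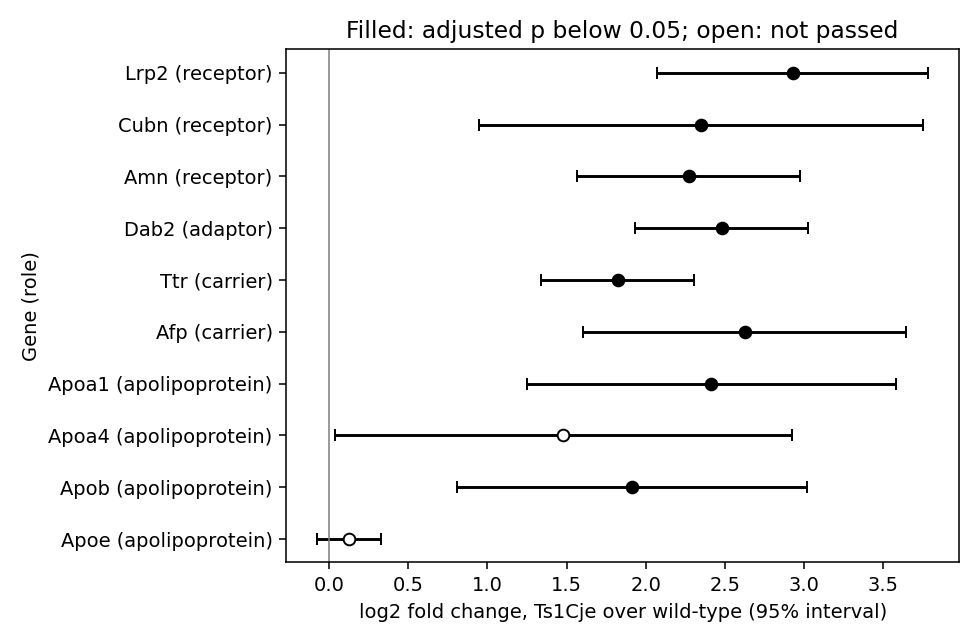
Log2 fold change of Ts1Cje over wild-type for each of the 10 genes with its 95% interval from the quasi-likelihood test, not adjusted for the number of genes; filled points passed the adjusted threshold of 0.05. The 8 filled points lie between 1.82 (Ttr) and 2.93 (Lrp2), and Apoe lies at 0.12 with the narrowest interval.

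Both carrier protein genes rose. Ttr, which encodes transthyretin, the carrier of thyroid hormone and, through retinol-binding protein, of vitamin A (ENSMUSG00000061808, chromosome 18, 20665280 to 20674321, plus strand), stood at 9.36, 7.79 and 6.80 CPM in wild-type and at 28.6, 20.4 and 35.7 CPM in Ts1Cje. The groups did not overlap; the log2 fold change was 1.82 ± 0.21 (SE; 3.54-fold), and the adjusted p of 0.000153 was the smallest of the 10 genes. Afp (ENSMUSG00000054932, chromosome 5, 90490737 to 90508907, plus strand) encodes alpha-fetoprotein, the main serum protein of the yolk sac and fetal liver. It stood at 1.95, 1.14 and 1.32 CPM in wild-type and at 5.15, 6.91 and 15.2 CPM in Ts1Cje, or 81 counts in all against 499. Its log2 fold change was 2.63 ± 0.45 (SE; 6.18-fold, adjusted p = 0.00174), and 2.03 without Ts1Cje replicate 3, the highest library. Afp was the single gene of the 10 in which Ts1Cje replicate 1, and not replicate 2, was the lowest Ts1Cje library.

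Among the apolipoprotein genes, Apob and Apoa1 passed the test and Apoa4 and Apoe did not, which is not a test of a difference between them. Apob (ENSMUSG00000020609, chromosome 12, 7977648 to 8016835, plus strand), which encodes the scaffold protein of chylomicrons and VLDL, stood at 37.7, 25.2 and 22.4 CPM in wild-type and at 125, 54.5 and 141 CPM in Ts1Cje. Its log2 fold change was 1.92 ± 0.43 (SE; 3.77-fold), with an adjusted p of 0.0188. Apob did not pass when wild-type replicate 2 (adjusted p = 0.0537) or 3 (0.0621) or Ts1Cje replicate 1 (0.0647) was left out. Apoa1 (ENSMUSG00000032083, chromosome 9, 46228580 to 46230466, plus strand), the main protein of HDL, stood at 2.54, 0.866 and 1.10 CPM in wild-type and at 10.1, 3.81 and 10.2 CPM in Ts1Cje. It rose by 2.42 ± 0.50 on the log2 scale (SE; 5.33-fold, adjusted p = 0.00565), and by 3.03 without wild-type replicate 1, its highest wild-type library. It passed in all 15 alternative analyses.

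Apoa4, a lipid-binding protein gene beside Apoa1 (ENSMUSG00000032080, chromosome 9, 46240696 to 46243459, plus strand), had 23, 20 and 2 counts in wild-type and 47, 20 and 58 in Ts1Cje. The groups overlapped, since Ts1Cje replicate 2 at 1.19 CPM lay below wild-type replicate 1 at 1.25 CPM. The log2 fold change was 1.48 ± 0.63 (SE; 2.79-fold, 95% interval 1.03 to 7.58 without adjustment), with an adjusted p of 0.0907. Gm10680, an antisense gene sharing 839 bases with Apoa4, held 47.8% to 61.7% of its count, so at this depth and without a stated counting strand the level of Apoa4 is uncertain.

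Apoe, which encodes the lipoprotein ligand of LDL-family receptors (ENSMUSG00000002985, chromosome 7, 19696109 to 19699188, minus strand), was abundant in every library. It stood at 506, 529.7 and 634 CPM in wild-type and at 611, 563 and 646 CPM in Ts1Cje, and the groups overlapped. Its log2 fold change was 0.12 ± 0.09 (SE; 1.09-fold, 95% interval 0.948 to 1.25, adjusted p = 0.298); it passed without wild-type replicate 3 (0.22, adjusted p = 0.0432). The TPM of Lrp2 over that of Apoe was 0.0143 to 0.0238 in wild-type and 0.0848 to 0.172 in Ts1Cje, so the pair changed unequally by 2.74 on the log2 scale. The 2-sided exact permutation test over libraries gave p = 0.1, the smallest that 3 against 3 libraries allow, and 0.2 after Benjamini-Hochberg adjustment over the 6 ratios computed.

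Set per gene length, Apoe and then Dab2 had the highest mean level in both genotypes, and Lrp2 stood in the sixth place in wild-type and in the third in Ts1Cje. In wild-type, mean TPM ran from Apoe (835) through Dab2 (37.4), Ttr (21.7), Amn (19.8), Cubn (18.5), Lrp2 (15.1), Apob (6.58) and Apoa1 (3.93) to Apoa4 (1.45) and Afp (1.40). In Ts1Cje it ran from Apoe (916) through Dab2 (209), Lrp2 (115), Amn (95.5), Cubn (93.8), Ttr (76.7), Apob (24.8) and Apoa1 (20.9) to Afp (8.70) and Apoa4 (4.03). Of the 9 pairs of neighbours in each order, 5 overlapped between libraries in wild-type and 7 in Ts1Cje. Amn and Cubn, side by side in both orders, overlapped in both. Apoe was above 99.5% of protein-coding genes in wild-type and above 99.6% in Ts1Cje; Lrp2 moved from above 65.3% to above 94.2%.

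The TPM ratio of Amn to Cubn, the partners of 1 receptor, was 1.08, 1.07 and 1.07 in the wild-type libraries. In Ts1Cje it was 0.819, 1.53 and 1.14, a wider spread around a mean that differed by 0.07 on the log2 scale (exact permutation test, p = 0.7; 0.7 adjusted over the 6 ratios). Lrp2 over Cubn lay between 0.701 and 0.956 in wild-type and between 0.987 and 1.70 in Ts1Cje (exact permutation test, p = 0.1; 0.2 adjusted). Lrp2 over Apob lay between 2.09 and 2.64 in wild-type and between 3.51 and 5.71 in Ts1Cje (exact permutation test, p = 0.1; 0.2 adjusted). Ttr over Afp, at 13.6 to 19.5 and 6.69 to 15.7, overlapped (exact permutation test, p = 0.3; 0.45 adjusted), as did Apoa1 over Apoa4 (p = 0.7; 0.7 adjusted).

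The libraries of 1 genotype differed in a shared way across these genes. Ts1Cje replicate 2 was the lowest Ts1Cje library in 9 of 10 genes, which was the case in 33% of the 10351 tested genes with a mean of at least 10 CPM. Wild-type replicate 1 was the highest wild-type library in 9 of 10 genes, against 38.3% of those genes. Between the highest and the lowest Ts1Cje library the median ratio was 2.38 over the 10 genes, against 1.15 over the 10351 genes, whose 95th percentile was 1.54. The low counts of Afp, Apoa1 and Apoa4 add counting error to their ratios, but Lrp2 (2.20), Cubn (3.78) and Amn (2.03), with 159 counts or more in every library, also spread past that percentile. Apoe, at 1.15, did not.

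**Figure D3:**
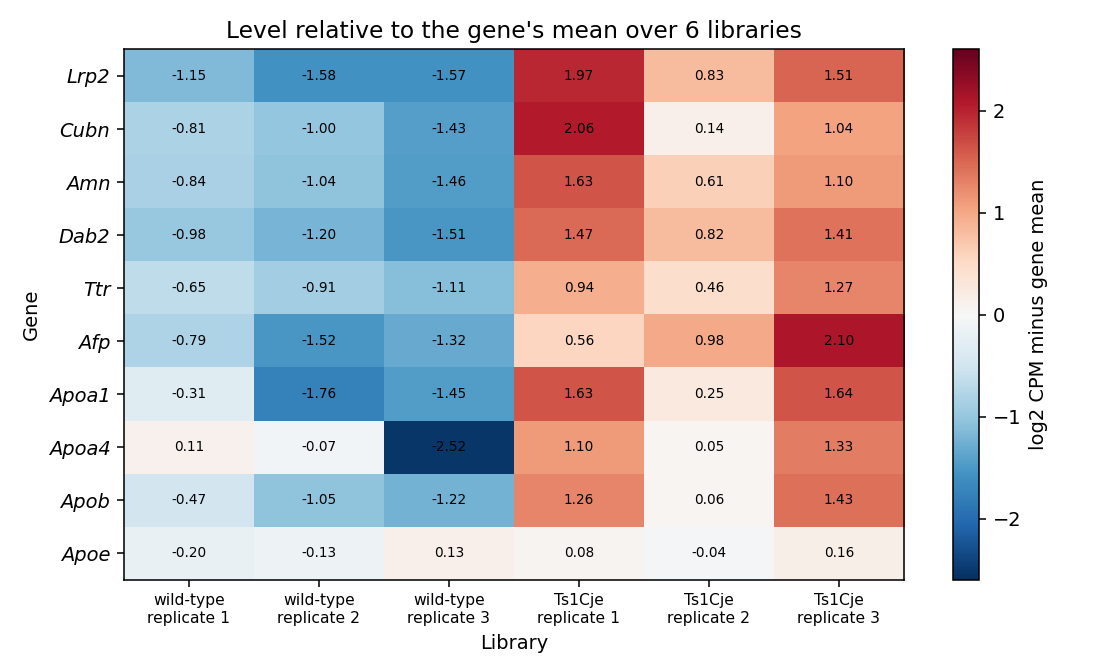
Log2 CPM of each gene minus its mean over the 6 libraries, one row per gene and one column per library, with red above and blue below the mean. In Ts1Cje replicate 2 the values run from −0.04 (Apoe) to 0.98 (Afp), and in Ts1Cje replicate 1 Cubn reaches 2.06.

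Among the genes with library profiles most like the mean profile of Lrp2, Cubn and Amn, by root mean square difference of centred log2 CPM over the 6 libraries among 13908 genes, were Folr1 (0.126), Slc7a3 (0.135), Ckmt1 (0.192) and Gm13270 (0.199). Folr1 stood at 7.36, 4.87 and 4.66 CPM in wild-type and at 50.2, 20.8 and 27.5 CPM in Ts1Cje. It was picked for its likeness over these same libraries, so a library order like that of the receptors follows from the choice. Gm13270 overlaps Cubn, and reads of that pair cannot be told apart with certainty. Nearest to the mean profile of the 4 apolipoprotein genes were Sycp3 (0.158), Palm3 (0.189), Fut9 (0.190), Mttp (0.197) and Gm20541 (0.211). That mean joins unlike profiles. Centred values of Apoe ran only from −0.195 to 0.157, and Apoa4, with few counts, reached −2.52 in wild-type replicate 3. Dab2 lay at 0.223 from the receptor profile, Ttr at 0.447, Afp at 0.693 and Apoe at 1.23.

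Partners of the receptors in endocytosis were mostly higher too. Of 16 such genes 15 were tested, 12 rose and 0 fell (80% higher, against 23.3% of all genes), with a median log2 fold change of 0.77. Lrpap1, the chaperone that keeps megalin free of ligand on its way to the surface, rose from 73.3 ± 10.5 to 517 ± 89.2 CPM (SD, n = 3 each; 2.82 ± 0.16 SE, adjusted p = 1.11e-05). Myo6, a motor that moves endocytic vesicles inward (2.33 ± 0.14), Ehd1, a factor of endosomal recycling (1.31 ± 0.08), and Clcn5, the endosomal chloride exchanger (1.01 ± 0.11), rose as well. The 3 genes that did not pass, named after their values were seen, were the subunit genes of the AP-2 clathrin adaptor Ap2a1 (0.01 ± 0.06), Ap2b1 (0.03 ± 0.05) and Ap2m1 (0.18 ± 0.08). Summed over the list, levels were 1720 to 1879 CPM in wild-type and 2864 to 3307 CPM in Ts1Cje.

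Other lipoprotein receptors went the other way. Of 9 tested, 6 fell and 1 rose, with a median of −0.37, where 20.5% of all genes fell. Vldlr, the VLDL receptor gene, fell from 129.5 ± 9.71 to 32.1 ± 3.83 CPM (SD, n = 3 each; −2.01 ± 0.10 SE, adjusted p = 1.16e-06). Lrp1, a broad endocytic receptor of the same family as megalin (−1.67 ± 0.16), and Lrp4 (−0.80 ± 0.08) fell too. Sorl1, a sorting receptor, rose by 1.93 ± 0.12. Without Ts1Cje replicate 3, 4 genes of this list fell and 2 rose; 2 also rose with a minimum mean log2 CPM of 1.

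Few other apolipoprotein genes had enough counts. Of 11, 4 were tested, 2 rose (50%, against 23.3% of all genes) and 0 fell. Clu, which encodes clusterin, rose from 42.2 ± 2.38 to 156 ± 41.4 CPM (1.89 ± 0.18 SE). Apoa2, a second HDL protein gene, rose by 1.27 ± 0.40 (adjusted p = 0.0263). Apoa2 rests on 37 counts in wild-type and 88 in Ts1Cje. Leaving out wild-type replicate 1 (adjusted p = 0.0604) or 2 (0.099) or Ts1Cje replicate 1 (0.107) ended its call. Among 18 genes of lipoprotein assembly, lipid transfer and remodelling, 13 were tested, with a median of 0.91. Of these, 8 rose (61.5%, against 23.3% of all genes) and 0 fell. They included, by its place among the nearest profiles, Mttp, which loads lipid onto the Apob product (17.5 ± 2.67 to 50.3 ± 14.8 CPM; 1.52 ± 0.23 SE, adjusted p = 0.00156), P4hb, whose product is its partner subunit (0.84 ± 0.06), Soat2, which makes cholesterol esters (2.20 ± 0.28), Abca1, the exporter of cholesterol to the Apoa1 product (2.56 ± 0.33), and Pltp, the phospholipid transfer protein gene (1.06 ± 0.16).

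Of 21 further genes of secreted cargo and vitamin carriers, 9 were tested, with a median of 1.61. Of these, 8 rose (88.9%, against 23.3% of all genes) and 0 fell. Trf, the transferrin gene, rose from 1.03 ± 0.28 to 9.15 ± 3.98 CPM (3.14 ± 0.39 SE), Tcn2, the carrier of vitamin B12, by 1.32 ± 0.11, the prothrombin gene F2 by 2.26 ± 0.25 and Stra6, the receptor of retinol-binding protein, by 1.54 ± 0.18. The list's summed level was 50.8 to 57.5 CPM in wild-type and 124 to 177 CPM in Ts1Cje. With a minimum mean log2 CPM of 1, which leaves out low genes, 5 rose.

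**Figure D4:**
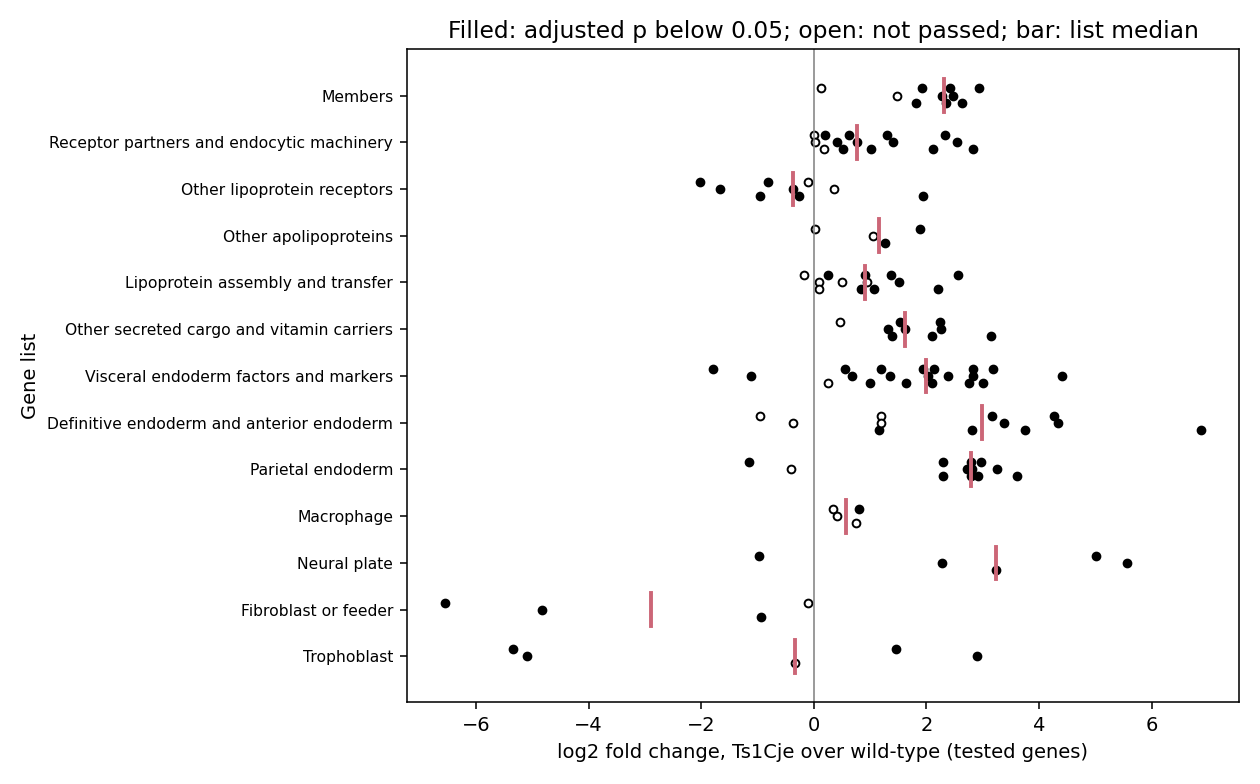
Log2 fold change of Ts1Cje over wild-type for the tested genes of the 10 described genes (top) and of each list of partner and marker genes, with filled points for an adjusted p below 0.05 and a red bar at the list's median. Medians lie at 2.31 for the 10 genes, 0.77 for receptor partners and −0.37 for other lipoprotein receptors.

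Markers of more than 1 kind of endoderm moved with these genes. Over all tested genes, 23.3% rose and 20.5% fell. Of 20 factors and markers of visceral endoderm, all tested, 17 rose (85%) and 2 fell (10%), with a median of 1.99. Their summed levels were 1453 to 1570 CPM in wild-type and 2943 to 3413 CPM in Ts1Cje. Sox17 (3.18 ± 0.12), the calcium-binding protein gene S100g (3.01 ± 0.16) and the signalling gene Ihh (2.82 ± 0.16) rose, and Sox7 (−1.12 ± 0.23) and Bmp2 (−1.79 ± 0.16), named after their values were seen, fell. Of 12 parietal endoderm markers, genes of the other extraembryonic endoderm layer, 10 rose (83.3%) and 1 fell, with a median of 2.79. The gene that fell was Snai1 (−1.15 ± 0.26), and Krt19 did not pass (−0.41 ± 0.33). Both were named after their values were seen. The number that fell was 0 with no filter and 0 without Ts1Cje replicate 1. Summed levels were 2542 to 3028 CPM in wild-type against 15300 to 20220 CPM in Ts1Cje. Col4a1, a basement membrane collagen gene, rose from 736 ± 48.8 to 5083 ± 701 CPM (2.79 ± 0.10 SE), and Col4a2 (2.80 ± 0.11), Lamc1 (2.72 ± 0.12) and Plat (2.92 ± 0.16) rose as well. Of 13 genes of definitive and anterior endoderm, 12 were tested, with a median of 2.98. Of these, 8 rose (66.7%) and 0 fell, while 1 fell with no filter and 1 without Ts1Cje replicate 2. Among those that rose were Gsc (2.81 ± 0.22), Foxa1 (4.34 ± 0.41), Cldn6 (3.16 ± 0.22) and Otx2 (3.75 ± 0.29). Those that did not pass, named after their values were seen, were Cxcr4 (−0.37 ± 0.20), Mixl1 (−0.96 ± 0.61), Eomes (1.20 ± 0.45) and Lhx1 (1.20 ± 0.40). Summed levels were 310 to 616 CPM in wild-type against 1552 to 1941 CPM in Ts1Cje. The part of each of these cell types in the result was not tested.

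Library order within a genotype was counted over all genes of 3 lists. Ts1Cje replicate 2 was the lowest Ts1Cje library in 11 of 20 visceral endoderm genes, in 7 of 12 parietal endoderm genes and in 10 of 16 receptor partner genes. Wild-type replicate 1 was the highest wild-type library in 12, 9 and 9 of them. Among the 10351 tested genes with a mean of at least 10 CPM, 33% had Ts1Cje replicate 2 lowest. In 38.3% of those genes wild-type replicate 1 was the highest.

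Liver markers were at or near 0, and macrophage markers were mixed. Alb, the albumin gene next to Afp on the chromosome, had 0 counts in all 6 libraries, as had Cyp2e1, Cyp3a11 and G6pc, and the 10 liver genes together made up at most 1.48 CPM in wild-type and 0.536 CPM in Ts1Cje. With all libraries, none of the 10 was tested in the main analysis, while 1 fell in DESeq2 and 1 with no filter. When wild-type replicate 1 was left out, 1 fell too. Of 16 macrophage genes 4 were tested and 1, Cd68, rose (25%, against 23.3% of all genes). Its log2 fold change was 0.80 ± 0.28 (SE, adjusted p = 0.0426). Leaving out wild-type replicate 2 (adjusted p = 0.147) or 3 (0.133) or Ts1Cje replicate 1 (0.129) or 2 (0.116) ended that call. Upper-quartile factors ended it too (adjusted p = 0.0518). Without wild-type replicate 1, 2 macrophage genes rose. Ptprc, Cx3cr1, Fcgr1 and C1qc had 0 counts in all libraries, and 9 of the 16 had at most 6 counts in all. Csf1r, the macrophage growth factor receptor gene, made up most of the list's sum at 14.3 ± 1.47 CPM in wild-type and 18.1 ± 2.12 CPM in Ts1Cje (SD, n = 3 each; adjusted p = 0.0703), and Mrc1 stood at 1.18 and 1.99 CPM (adjusted p = 0.155); both were named after their values were seen. The list summed to 19.1 to 25.4 CPM in wild-type and 29.1 to 31.9 CPM in Ts1Cje. The part of macrophage-type cells in the levels of Dab2 and Apoe was not tested.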

How the data were processed

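RNA was measured in 6 libraries, 3 per genotype, grouped and numbered by the labels. A table of raw counts for Ensembl genes and a table of TPM were deposited by the authors. Software listed in the submitters' processing notes was featureCounts 1.6.3, HISAT2 2.1.0, Trimmomatic 0.38 and FastQC 0.11.7, in no stated order, with build mm10. Settings and counting strand: not given in the sources used here.

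Counts were analysed in R 4.3.3 with edgeR 4.0.16, using filterByExpr (minimum count 10, minimum total 15) and TMM scaling. The robust quasi-likelihood test was run without covariates, with Benjamini-Hochberg adjustment over all genes tested. The code was checked on simulated counts with the same dispersion for every gene and changes only in genes with ample counts. That check does not cover genes with few counts or a wide spread between libraries. The SE was taken from the size of the log2 change divided by the root of F, so it and the 95% intervals are approximate. Alternatives were RLE and upper-quartile factors, DESeq2 1.42.0, limma 3.58.1 (voom on counts, trend on log2(TPM + 1) and log2(TPM + 0.1)), no filter, a minimum mean log2 CPM of 1, the lot number as a replicate block, and leaving out each library. Deposited coordinates of the 10 genes were identical to GENCODE M21.

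The genes, lists and tests were chosen with earlier results of these data known. From each list the text names up to 4 called genes with the smallest adjusted p, besides those named by profile, genomic position or after their values were seen; the nearest profiles are the 5 smallest distances among genes with a mean log2 CPM of at least 1. Reads carry no molecular identifiers. Genes that these rules pick and the text does not name are not reported here. Protein sequences were not used here.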

Additional observations from a re-analysis of the deposited data

How the results depend on the processing

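Lrp2, Amn, Dab2, Ttr, Afp and Apoa1 kept their direction and their call in all 15 alternatives. Cubn lost its call with no filter (log2 fold change 2.34, adjusted p = 0.0648) and ranged from 1.72 to 2.70 on leaving out 1 library; Apob lost it with no filter (1.91, adjusted p = 0.0607) and ranged from 1.66 to 2.23. Apoa4 passed with no filter (1.48, adjusted p = 0.00147) and ranged from 0.96 to 1.92 on leaving out 1 library; it had too few counts for the minimum mean log2 CPM of 1. Apoe ranged from 0.057 to 0.22 on leaving out 1 library. The cause of these changes was not tested. No value of the 10 genes changed sign in any alternative. The count of called genes over all genes ran from 6039 to 8326, and that of the 10 genes from 6 to 8. Leaving out 1 library moved Afp between 2.03 and 2.91 and Apoa1 between 2.14 and 3.03.

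Lot numbers were taken as shared numbers and not as a pairing, since the labels do not state that same-numbered lots belong together. In their deviations from the group means, same-numbered libraries correlated at 0.219, 0.0589 and 0.202. Every library correlated best with its own number, a hint of pairing from the data and not from the design. With the replicate block, 8326 genes were called in place of 7579 and 6 of the 10 genes in place of 8: Cubn stood at 2.18 (adjusted p = 0.0685) and Apob at 1.84 (adjusted p = 0.0561), and 2 other lipoprotein receptor genes rose in place of 1. With 2 to 23 counts per wild-type library, depth limits what can be said of Apoa4.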

Other observations

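Genes beside the described ones on their chromosomes were mostly too low to test. Of the Apoa1 neighbourhood, Apoc3 gave 2 counts for wild-type and 4 for Ts1Cje, and Apoa5 gave 5 and 11, so Apoa1 and Apoa4 were the 2 genes of the 4 that were tested. Afm, which encodes the vitamin E carrier afamin beside Alb and Afp, went from 10 counts in wild-type to 48 in Ts1Cje and rose by 2.24 ± 0.52 (SE; adjusted p = 0.00597, edgeR's quasi-likelihood test), while Alb, in the same neighbourhood, had 0 counts. Beside Apoe, Apoc1 stood at 1.03 CPM in wild-type and 2.15 CPM in Ts1Cje (log2 fold change 1.06 ± 0.43, adjusted p = 0.0703), and Tomm40, a mitochondrial import gene, rose by 0.30 ± 0.08 (adjusted p = 0.0141).

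Lists for tissues that also use some of these genes gave mixed counts. Over all tested genes, 23.3% rose and 20.5% fell. Neural plate, where megalin is known as a receptor too, had 5 of 10 genes tested, of which 4 rose and 1 fell. Sox21 rose by 3.24 ± 0.27, Sox2 by 2.28 ± 0.26 and Six3 by 5.56 ± 0.80, Hesx1 had a ratio of 36.4 (3 counts against 107, 95% exact binomial interval 12.1 to 179), and Rax, with 0 counts against 39, was at least 13.3-fold higher against 3 counts over the group; these bounds cover counting error only. The gene that fell was Lhx2, named after its values were seen (−0.97 ± 0.32, adjusted p = 0.032). The untested genes besides Rax, also named after their values were seen, had few counts and did not share a direction. Their totals in wild-type and Ts1Cje were 36 and 24 for Sox1, 6 and 6 for Pax6, 11 and 5 for Zic1, and 14 and 24 for Lhx5. No neural plate gene fell (0) when wild-type replicate 2 or 3 or any of the 3 Ts1Cje libraries was left out. Of 4 tested fibroblast or feeder genes 3 fell, namely Pdgfrb (−4.82 ± 0.54), Col1a2 (−0.95 ± 0.21) and Col1a1 (−6.55 ± 1.27). Col1a1 did not pass in limma-voom (adjusted p = 0.0873), nor when Ts1Cje replicate 1 (adjusted p = 0.0589) or 3 (0.0532) was left out. Of 8 trophoblast genes 5 were tested. Among these 2 rose, Krt7 (2.90 ± 0.37) and Ascl2 (1.46 ± 0.27), and 2 fell, Cdx2 (−5.33 ± 0.40) and Hand1 (−5.10 ± 0.42). The 3 not tested, named after their values were seen, had few counts. Their totals in wild-type and Ts1Cje were 1 and 9 for Elf5, 0 and 8 for Gcm1, and 0 and 0 for Prl3d1.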
